A study of Mus musculus with 8 samples.

Results

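The P2Y receptors are the G protein-coupled receptors for extracellular nucleotides, and their genes were followed here in the forebrain of mice with and without depletion of microglia. The members were the 7 rows of the count table whose gene symbol is P2ry1, P2ry2, P2ry4, P2ry6, P2ry12, P2ry13 or P2ry14, of 53278 gene symbols in all. The material was bulk RNA of the whole forebrain, from male C57BL/6J animals between 10 and 20 weeks old. The 4 depleted mice had eaten food with PLX3397, an inhibitor of the kinase CSF1R on which microglia depend for survival, and the 4 control mice had eaten control food, for 9 days each. No allele or transgene is named for either group. The drug was given in the food, so other cells that need CSF1R were exposed to it as well. By its title, the study asks how microglia act on blood flow in the brain through CD39, an enzyme that breaks down extracellular ATP and ADP; the genes described here encode receptors for such nucleotides.

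P2Y receptors sense ATP, ADP, UTP, UDP and UDP-sugars that leave active or damaged cells. P2Y12, P2Y13 and P2Y14 couple to inhibitory G proteins of the Gi family, and P2Y1, P2Y2, P2Y4 and P2Y6 to Gq proteins, which release calcium from stores. In the brain P2Y12 is best known for drawing microglial processes toward sites where ADP appears, P2Y6 for microglial phagocytosis, and P2Y1 for calcium signals in astrocytes and neurons.

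Total counts ranged from 48455538 to 68406688 in depleted mice and from 48615169 to 55007924 in control mice. The 10 microglial markers used to check the groups all fell, and their summed level was 28.1 to 32.5 CPM (counts scaled by library total) in depleted mice, against 192 to 231 CPM in control mice. The forebrain pieces were not alike within groups: Hcrt, a gene of hypothalamic neurons, had at least 100 counts in mice 2 and 3 of both groups and at most 12 counts in the other mice. The sum of 8 striatal neuron markers ranged from 689 to 2730 CPM in depleted mice and from 258 to 1420 CPM in control mice. Each mouse is a separate sample, and errors are SDs over 4 mice per group unless a standard error (SE) of the fit is named.

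The 3 members that fell were the ADP receptor genes P2ry12 and P2ry13 and the UDP receptor gene P2ry6. Of the 7 members, 6 passed the filter on low counts and were tested, and 3 of these 6 were lower in depleted mice at an adjusted p under 0.05 (edgeR's quasi-likelihood test, Benjamini-Hochberg over 20140 genes). Over all genes tested, 1.16% passed by that rule, 1.11% lower and 0.0546% higher. The same 3 members passed in DESeq2, where 1.99% of all genes did. No member was higher in edgeR, DESeq2 or limma-voom, and of the other 3 tested members 0 had an unadjusted p under 0.05 in edgeR or DESeq2 and 1, P2ry1, in limma-voom (log2 fold change 0.65, unadjusted p = 0.0489, adjusted p = 0.431). The depleted and control mice did not overlap in the same 3 members, where the groups did not overlap in 5.77% of all genes tested and every depleted mouse was below every control mouse in 3.5%.

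**Figure D1:**
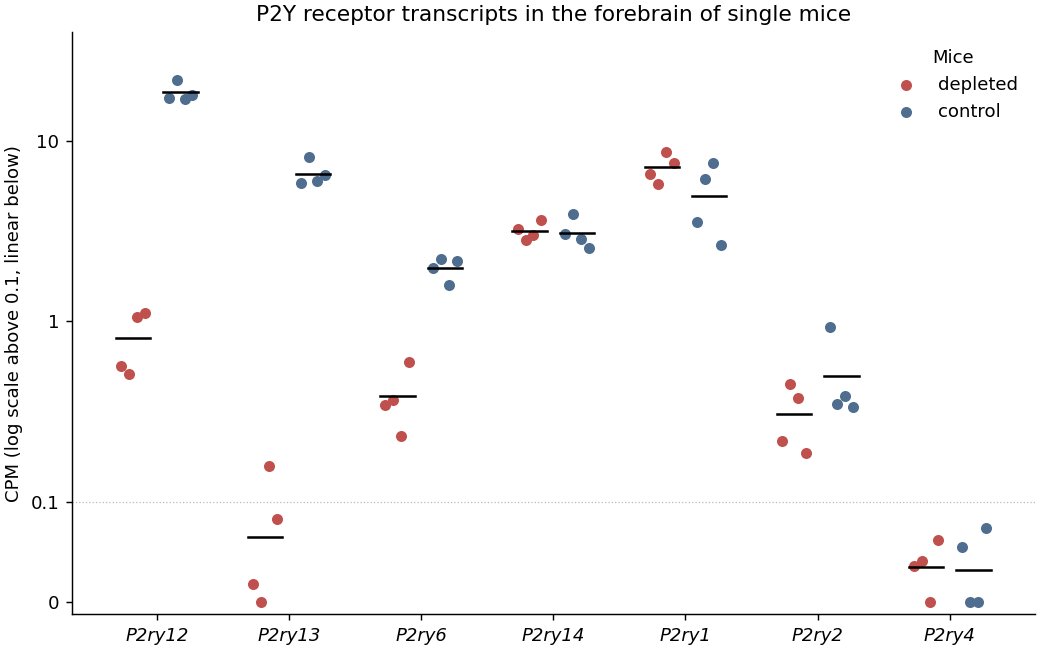
Levels of the 7 P2Y receptor genes in CPM, on a log scale above 0.1 and a linear scale below it; each point is 1 mouse, red for depleted and blue for control, and black lines are group means. The depleted mice lie below the control mice without overlap for P2ry12, P2ry13 and P2ry6, and the groups overlap for the other 4 genes.

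Among the Gi-coupled receptors, P2ry12 is a marker of resting microglia and encodes the ADP receptor that is also the platelet target of clopidogrel. It had 0.562, 0.509, 1.05 and 1.11 CPM in depleted mice 1 to 4, against 17.4, 21.6, 17.1 and 18.1 CPM in control mice 1 to 4. Every depleted mouse was far below every control mouse, and depleted mice 1 and 2 were lower than depleted mice 3 and 4. The fitted change was -4.51 on the log2 scale (SE 0.24, adjusted p = 9.49e-06, edgeR), which leaves 4.40% of the control level, with a 95% interval of 3.04% to 6.38%. In bulk tissue, fewer cells of a type and less RNA per cell cannot be told apart.

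P2ry13 encodes a further ADP receptor of the same branch. It was counted 1, 0, 11 and 4 times in depleted mice 1 to 4, against 320, 394, 324 and 348 times in control mice 1 to 4. That is 0.0648 ± 0.0719 CPM in depleted mice and 6.59 ± 1.05 CPM in control mice. No control mouse came near the depleted range, and depleted mouse 3 alone held 11 of the 16 reads of its group. The log2 fold change of -6.50 (SE 0.46, adjusted p = 4.52e-05, edgeR) leaves 1.11% of the control level, with a 95% interval of 0.545% to 2.25%. By fold change it was number 5 from the bottom of the 20140 genes tested, whereas P2ry12 was number 39 and P2ry6 number 125.

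P2ry14, the Gi-coupled receptor gene for UDP-glucose and related UDP-sugars, stood apart from these neighbours on the same chromosome. It had 3.23, 2.81, 3.00 and 3.64 CPM in depleted mice, against 3.03, 3.93, 2.87 and 2.55 CPM in control mice. The groups overlapped fully, and the log2 fold change was 0.03 (SE 0.16, adjusted p = 0.963, edgeR). The 95% interval of the change runs from 0.80-fold to 1.31-fold.

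Among the Gq-coupled receptors, P2ry6 encodes the UDP receptor. It had 0.345, 0.366, 0.231 and 0.597 CPM in depleted mice 1 to 4, against 1.97, 2.20, 1.60 and 2.16 CPM in control mice 1 to 4. The highest depleted mouse was still below the lowest control mouse. The log2 fold change was -2.38 (SE 0.27, adjusted p = 0.00119, edgeR), which leaves 19.2% of the control level, with a 95% interval of 12.6% to 29.3%.

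P2ry1, the Gq-coupled ADP receptor gene, did not pass the test. It had 6.57, 5.78, 8.70 and 7.57 CPM in depleted mice 1 to 4, against 3.54, 6.12, 7.57 and 2.66 CPM in control mice 1 to 4. The depleted mice were alike, while control mice 1 and 4 were low and control mice 2 and 3 lay within the depleted range. The log2 fold change was 0.53 (SE 0.30, adjusted p = 0.563, edgeR), with a 95% interval of 0.911-fold to 2.28-fold. It shares 992 exon bases with the antisense gene Gm37035, which had 18 counts over the depleted and 16 over the control mice.

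The level of striatal neuron markers also differed between the mice. The mean log2 CPM of the 8 striatal neuron markers was 7.68, 5.98, 7.99 and 7.64 in depleted mice 1 to 4, against 4.45, 6.99, 6.37 and 5.51 in control mice 1 to 4. Control mice 1 and 4 had both the lowest marker levels and the lowest P2ry1 values of the 8 mice. With the marker level as a covariate, the log2 fold change of P2ry1 was 0.03 (SE 0.29, adjusted p = 1.00, edgeR), against 0.62 (SE 0.25, unadjusted p = 0.0332, adjusted p = 0.385) with the presence of Hcrt reads as a block. The marker level itself was higher in 3 of 4 depleted mice than in any control mouse, so it cannot be told apart from the treatment, and its part in the P2ry1 values was not tested. Control mouse 3, at a marker level of 6.37, had the same P2ry1 level (2.93 log2 CPM) as depleted mouse 4 at 7.64.

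**Figure D2:**
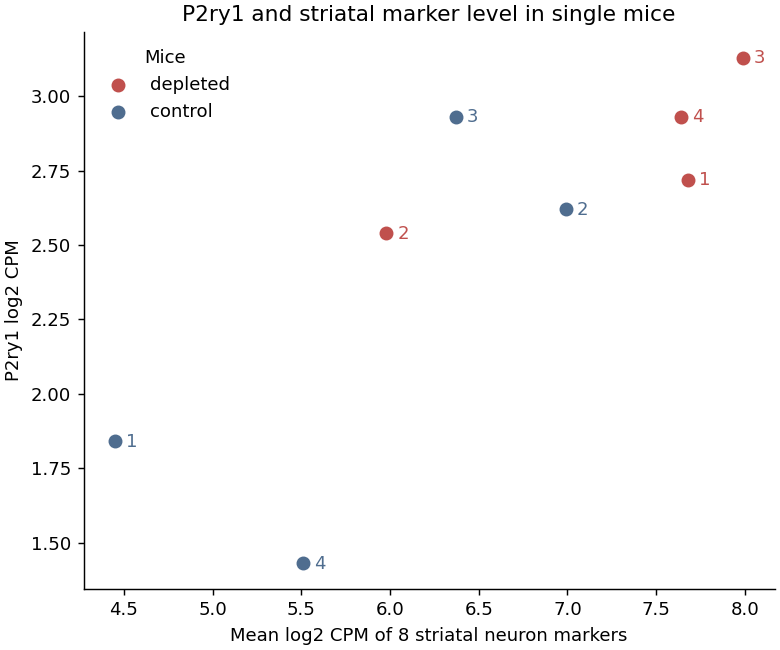
P2ry1 in log2 CPM (vertical) against the mean log2 CPM of 8 striatal neuron markers (horizontal); each point is 1 mouse with its number, red for depleted and blue for control. Control mice 1 and 4 are lowest on the vertical axis, and depleted mouse 3, at a marker level of 7.99, is highest on both.

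P2ry2 and P2ry4, the Gq-coupled receptor genes for ATP and UTP, were near the limit of detection. P2ry2 had 12, 22, 26 and 9 counts in depleted mice 1 to 4, against 51, 17, 21 and 18 counts in control mice 1 to 4. Control mouse 1 stood above all other mice, and the other control mice lay within the depleted range. The log2 fold change was -0.70 (SE 0.42, adjusted p = 0.600, edgeR), with a 95% interval of 0.319-fold to 1.19-fold, and without control mouse 1 it was -0.21 (adjusted p = 0.942). P2ry4 had 2, 2, 0 and 3 counts in depleted mice and 3, 0, 0 and 4 counts in control mice, too few to test. Its reads summed to 7 in each group, so a fall of P2ry4 could not have been detected at this depth.

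The 3 members that fell did not fall to the same degree. Within a mouse, the log2 ratio of P2ry12 to P2ry13 was 3.27 ± 0.59 in depleted mice and 1.49 ± 0.07 in control mice, a difference of 1.78. The log2 ratio of P2ry6 to P2ry12 was -0.99 ± 0.71 in depleted mice and -3.21 ± 0.16 in control mice, a difference of 2.21. That of P2ry6 to P2ry13 was 2.28 ± 1.29 in depleted mice and -1.71 ± 0.18 in control mice, a difference of 3.99. In each of these 3 ratios the 4 depleted mice lay above the 4 control mice (p = 0.0286 for each, two-sided, in an exact permutation test with 70 possible splits, also after adjustment over the 3 pairs, the smallest that 4 mice against 4 can give). The ratios with P2ry13 rest on 16 of its reads over the depleted mice, so the prior count of 2 added to each library sets much of their size. With a prior count of 0.5 the difference was 2.62 for P2ry12 to P2ry13, 4.79 for P2ry6 to P2ry13 and 2.18 for P2ry6 to P2ry12, with the same p.

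Single depleted mice followed the same order. P2ry12 was left at 3.03%, 2.74%, 5.68% and 5.99% of the mean control level in depleted mice 1 to 4. P2ry6 was left at 17.4%, 18.4%, 11.6% and 30.1%, above P2ry12 in each mouse. P2ry13 was left at 0.275%, 0.00%, 2.41% and 1.25%, below P2ry12 in each mouse, and the 0 reads of depleted mouse 2 allow up to 0.926% (3 counts; such limits cover counting error only). The median of 34 other microglial genes was 4.97%, 2.32%, 5.25% and 5.0% in the same mice. Depleted mouse 2 thus had the lowest P2ry12, P2ry13 and microglial levels of its group, but not the lowest P2ry6 level.

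**Figure D3:**
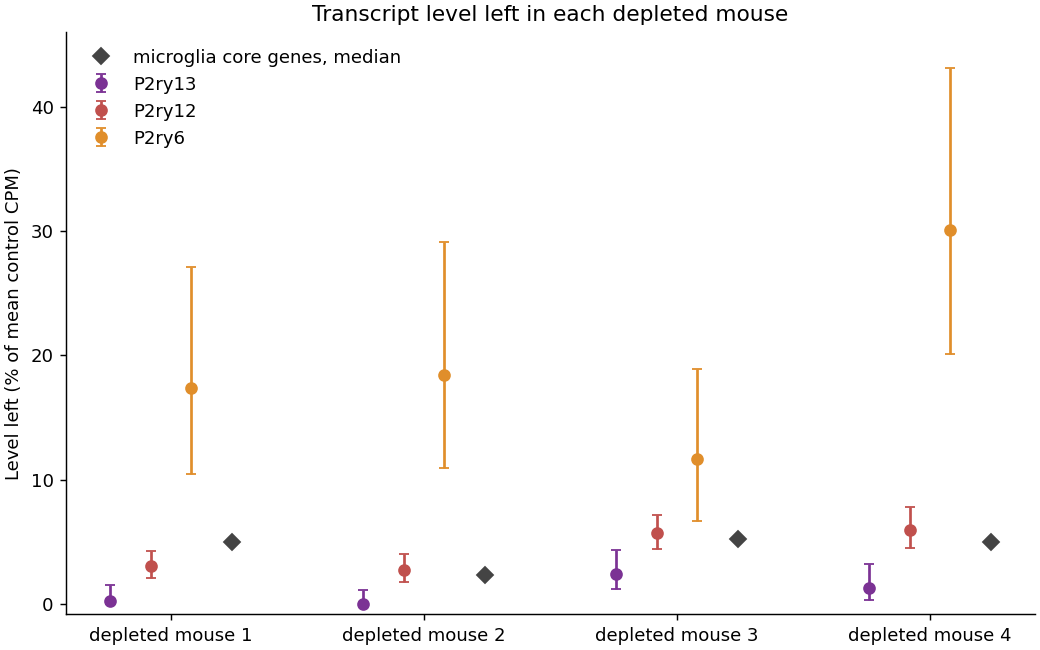
Transcript level left in each depleted mouse, as a percentage of the mean control CPM, for P2ry13, P2ry12, P2ry6 and the median of 34 other microglial genes; bars are exact 95% Poisson intervals of that mouse's count alone, and the median carries no bar. P2ry6, at 11.6% to 30.1%, lies above P2ry12 and the microglial median in all 4 mice, and P2ry13, at 2.41% or less, lies below them.

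The 34 microglial genes, a list without the members, were left at widely different levels. In edgeR 33 of the 34 fell, beside 1.11% of all 20140 genes tested. The median log2 fold change of the 34 was -4.27, where the median over all genes was -0.00038. Their level left ran from 1.25% for the lectin gene Siglech to 88.7% for the G protein regulator gene Rgs10, the member that did not pass. P2ry13 was left below all 34, P2ry12 above 16 of them and P2ry6 above 21 of them. Among the listed genes with the smallest p were the microglial marker gene Tmem119 (log2 fold change -4.35) and the lysosomal membrane protein gene Laptm5 (-4.81).

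Per length of transcript, P2ry12 dominated the family in control mice and P2ry1 in depleted mice. In TPM (counts per kilobase of exon, scaled to the same total in every mouse), the 7 genes summed to 9.39 ± 1.59 in depleted mice and 45.4 ± 5.13 in control mice. P2ry12 made up 12.3% ± 2.89 of this sum in depleted mice and 60.0% ± 2.31 in control mice. P2ry13 made up 0.90% ± 0.95 in depleted mice and 21.4% ± 1.22 in control mice. P2ry1 made up 66.3% ± 2.99 in depleted mice and 9.45% ± 4.13 in control mice, where its level was 6.22 ± 1.10 TPM in depleted and 4.33 ± 2.01 TPM in control mice. These are descriptions of a sum over chosen genes and carry no test. The larger share of P2ry1 in depleted mice comes with a smaller sum of the other genes.

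By receptor branch, the 3 Gi-coupled genes summed to 2.35 ± 0.60 TPM in depleted mice and 37.97 ± 4.44 TPM in control mice. The 4 Gq-coupled genes summed to 7.04 ± 1.02 TPM in depleted mice and 7.40 ± 1.66 TPM in control mice, with overlapping ranges. The Gq-coupled sum held 1 gene that fell, P2ry6, and 1 whose mean was higher in depleted mice without passing the test, P2ry1.

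**Figure D4:**
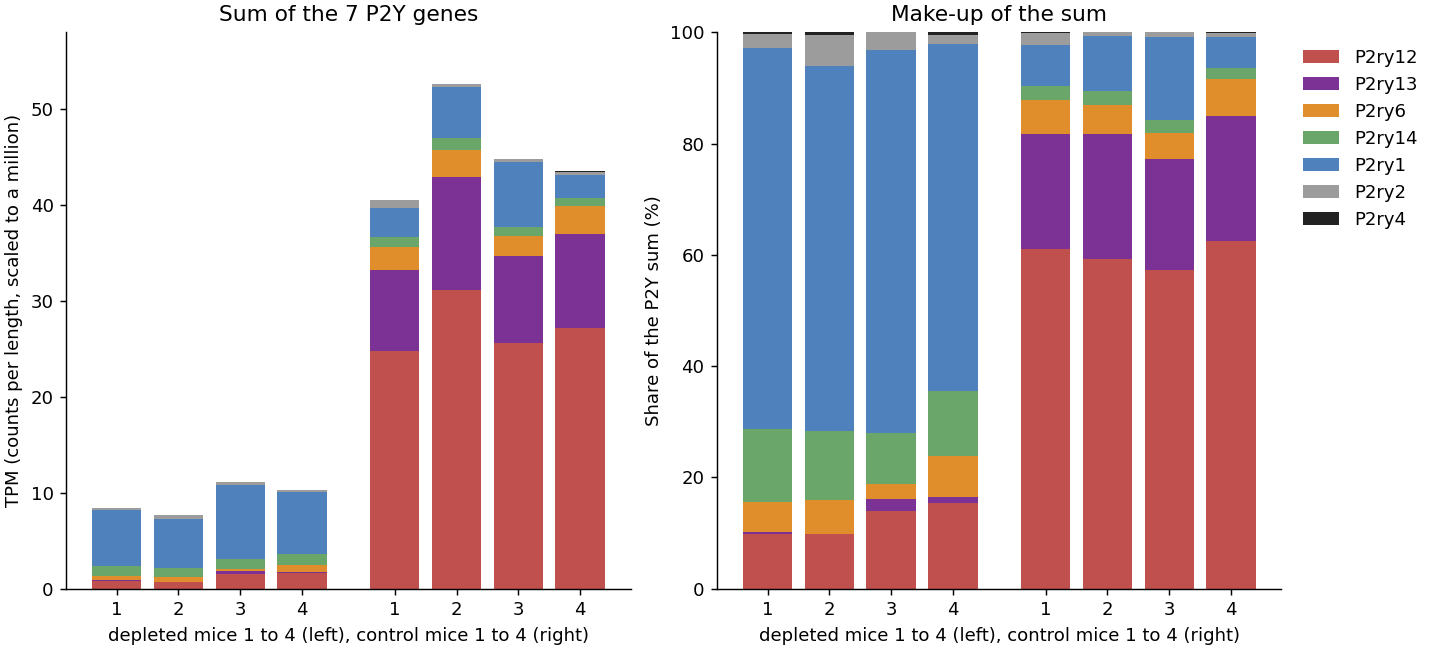
Left, the 7 P2Y receptor genes stacked in TPM for each mouse; right, the same as percentages of their sum. The 4 depleted mice are the left bars of each panel, with P2ry1 at 62.3% to 68.7% of the sum, and the 4 control mice are the right bars, with P2ry12 at 57.2% to 62.5%.

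The order of levels in depleted mice was P2ry1 (5.06 to 7.64 TPM), P2ry12 (0.751 to 1.59), P2ry14 (0.955 to 1.20), P2ry6 (0.301 to 0.752), P2ry2 (0.172 to 0.429), P2ry13 (0 to 0.237) and P2ry4 (0 to 0.0507). Only P2ry1 was apart from its neighbour there, as well as P2ry14 from P2ry6; all other neighbours in this order overlapped. In control mice the order was P2ry12 (24.8 to 31.2 TPM), P2ry13 (8.40 to 11.8), P2ry1 (2.38 to 6.73), P2ry6 (2.11 to 2.88), P2ry14 (0.886 to 1.31), P2ry2 (0.325 to 0.862) and P2ry4 (0 to 0.0640). There, P2ry1 and P2ry6 were the only neighbours whose ranges overlapped. P2ry14 was divided by 11059 exon bases, the sum over all its annotated isoforms, against 2546 for P2ry12, so its TPM understates the level of its shorter isoforms.

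The genes of the 3 Gi-coupled receptors lie side by side on chromosome 3 (mm10), yet only 2 of them fell. P2ry14 spans 59113855 to 59153618, P2ry13 spans 59207892 to 59210882 and P2ry12 spans 59216272 to 59262871, all on the minus strand. P2ry1 lies on the same chromosome at 61002795 to 61008982, P2ry6 (100937630 to 100974649) and P2ry2 (100996568 to 101012866) are neighbours on chromosome 7, and P2ry4 is on chromosome X (100590154 to 100594869). Within 100 kb of the Gi-coupled group, 9 genes are annotated and 6 were tested. Of the 3 tested genes there that are no members, 0 passed in edgeR, DESeq2 or limma-voom and, in edgeR, 0 had an unadjusted p under 0.05.

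These neighbours were the receptor gene Gpr171 at -0.69 on the log2 scale (SE 0.37, adjusted p = 0.544), the immunoglobulin superfamily gene Igsf10 at 0.21 (SE 0.20, adjusted p = 0.765) and the Mediator subunit gene Med12l at -0.11 (SE 0.12, adjusted p = 0.784), all in edgeR. Gm43589 and Gm38186 were not tested, with 5 and 12 counts over the depleted mice, against 0 and 22 over the control mice. Med12l runs across all 3 receptor genes on the plus strand, at 29.2 ± 4.20 CPM in depleted mice and 31.6 ± 3.32 CPM in control mice. It shares 9 exon bases with P2ry12 and none with P2ry13 or P2ry14. The strand setting of the counts is not given in the sources used here, so unspliced Med12l reads over these exons cannot be told apart from receptor reads.

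**Figure D5:**
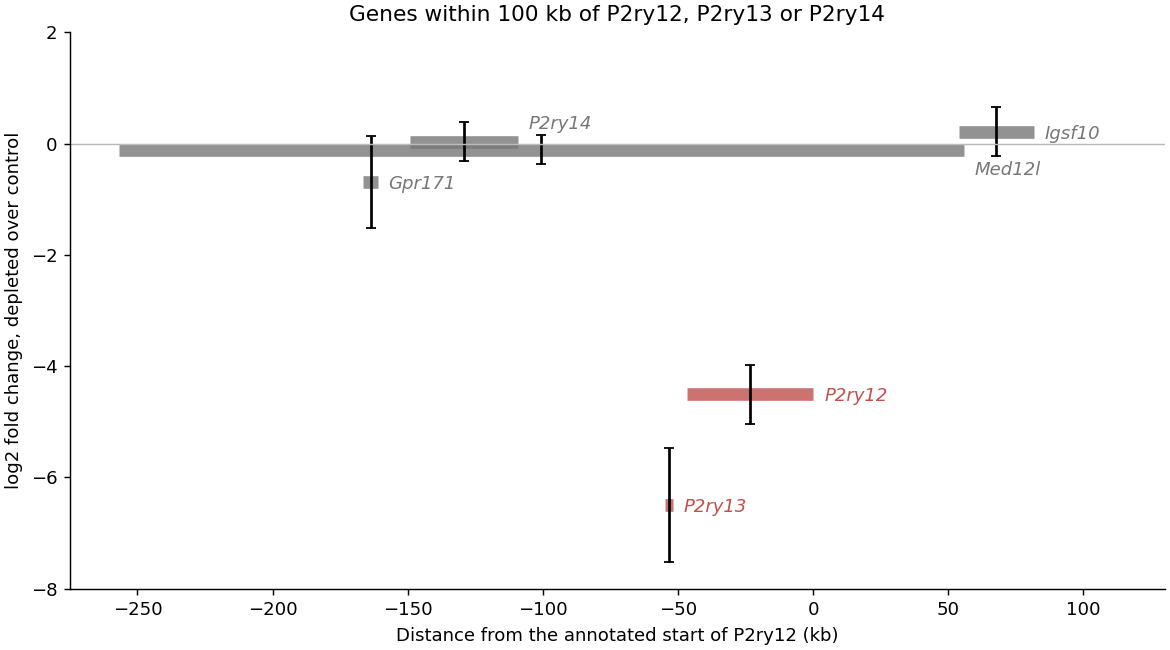
Log2 fold change, depleted over control, of the 6 tested genes within 100 kb of P2ry12, P2ry13 or P2ry14, drawn at their distance in kb from the annotated start of P2ry12; horizontal bars span each gene, black lines are 95% intervals, red marks an adjusted p under 0.05. P2ry12 at -4.51 and P2ry13 at -6.50 lie far below P2ry14, Med12l, Gpr171 and Igsf10, whose intervals include 0.

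The upstream sequences of the 2 neighbours that fell, of P2ry14, which did not pass, and of P2ry1 are shown because these 4 genes share a chromosome and differ in outcome. Each is the 250 bases before a RefSeq transcript start (GRCm38.p6, the assembly of mm10), 5′ to 3′ along the gene, at chr3:59210883-59211132 for P2ry13, chr3:59262986-59263235 for P2ry12 and chr3:59153493-59153742 for P2ry14 (all minus strand; of 4 listed starts of P2ry14 the farthest upstream), and chr3:61002535-61002784 for P2ry1 (plus strand). Capitals mark the letters GAGGAA, a short core of sites for PU.1, the myeloid transcription factor encoded by Spi1.
P2ry13: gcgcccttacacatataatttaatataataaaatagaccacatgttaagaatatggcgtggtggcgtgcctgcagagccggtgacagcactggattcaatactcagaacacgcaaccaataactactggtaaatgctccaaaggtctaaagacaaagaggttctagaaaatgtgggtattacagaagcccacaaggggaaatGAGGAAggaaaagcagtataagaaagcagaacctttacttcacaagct
P2ry12: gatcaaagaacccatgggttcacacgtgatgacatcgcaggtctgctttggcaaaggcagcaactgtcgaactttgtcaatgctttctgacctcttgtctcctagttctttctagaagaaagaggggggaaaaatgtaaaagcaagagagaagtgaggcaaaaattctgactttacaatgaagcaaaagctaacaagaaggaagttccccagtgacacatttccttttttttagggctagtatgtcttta
P2ry14: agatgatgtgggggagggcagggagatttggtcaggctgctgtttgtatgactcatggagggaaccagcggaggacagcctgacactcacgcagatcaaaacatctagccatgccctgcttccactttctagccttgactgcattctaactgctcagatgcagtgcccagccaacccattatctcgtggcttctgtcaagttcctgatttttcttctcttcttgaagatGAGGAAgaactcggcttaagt
P2ry1: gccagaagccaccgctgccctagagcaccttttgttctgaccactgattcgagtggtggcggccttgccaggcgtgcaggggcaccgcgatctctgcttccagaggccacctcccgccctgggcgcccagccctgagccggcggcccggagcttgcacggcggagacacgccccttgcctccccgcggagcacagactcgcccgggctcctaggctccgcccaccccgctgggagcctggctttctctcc

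The letters GAGGAA occurred, on either strand, in the P2ry13 window 48 to 43 bases before the start, in the P2ry4 window, in none of the P2ry12, P2ry1 or P2ry2 windows, and in the windows of all 4 P2ry14 starts, of which 2 overlap and share 1 match. They occurred in 23.3% of all 32851 upstream windows of this length. The longer PU.1 letters GAGGAAGT, which contain GAGGAA and occur in 2.44% of all windows, were in none of the 10 listed windows of 6 members. The same held for the composite of PU.1 and interferon regulatory factors (2.30% of all windows), and for the SMAD palindrome GTCTAGAC (0.167%). The GC content was 41.6% upstream of both P2ry13 and P2ry12, at least 42.8% upstream of the 4 starts of P2ry14, 65.2% and 71.2% for P2ry2, and 70.8% for P2ry1. A match is a description of these letters and says nothing of binding. Only these exact letters were searched, so a window without a match can still hold a variant of a site.

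Of the signalling genes around these receptors, the few that fell are known from blood and immune cells, and most brain-wide parts of both G protein pathways did not pass. In the list of 31 genes of the Gi branch, 1 fell and none rose, with a median log2 fold change of -0.04, beside 1.11% lower genes and a median of -0.00038 over all genes. It was Pik3cg, the phosphoinositide kinase that Gi subunits activate in leukocytes, at 0.398 ± 0.120 CPM in depleted mice and 2.42 ± 0.306 CPM in control mice (log2 fold change -2.60, SE 0.23, adjusted p = 1.72e-04, edgeR). Its regulatory subunit gene Pik3r5 stood at -0.73 (adjusted p = 0.116). Kcnk13, the potassium channel gene THIK-1 that P2Y12 opens in microglia, stood at 0.25 (SE 0.17, adjusted p = 0.646), with 9.08 CPM in depleted and 7.67 CPM in control mice. At an unadjusted p under 0.05 in edgeR, the Gi list had 7 genes, some lower and some higher. The share of all genes at that level is not given here, so this count is not read as a result about the list.

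Of 26 tested genes of the Gq branch (median 0.01), 2 fell and none rose past the threshold, beside 1.11% lower genes over all genes tested. They were Gna15, a Gq-family subunit of blood cells (0.0566 ± 0.0182 CPM in depleted mice, 1.25 ± 0.159 CPM in control mice, log2 fold change -4.38, adjusted p = 2.16e-05, edgeR), and the exchange factor gene Vav1 (-5.58, adjusted p = 3.29e-05). The phospholipase gene Plcg2 had 2.08 ± 0.623 CPM in depleted and 4.16 ± 0.304 CPM in control mice (adjusted p = 0.0738). The widely expressed subunit genes did not pass, and the sum of the list was 2710 to 3400 CPM in depleted mice and 2480 to 3130 CPM in control mice. At an unadjusted p under 0.05 in edgeR, the Gq list had 8 genes, some lower and some higher. This count also stands without the share of all genes at that level and is not read as a result.

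Of 19 tested genes for microglial process movement and phagocytosis, 7 fell and none rose, with a median of -0.21, beside 1.11% lower genes over all genes tested. The integrin gene Itgam (-6.07, adjusted p = 6.27e-05), the integrin activator gene Fermt3 (-1.98, adjusted p = 9.59e-05), the actin regulator gene Was (-3.86, adjusted p = 4.49e-04) and the integrin gene Itgb2 (-4.05, adjusted p = 4.70e-04) had the smallest p in edgeR. Mertk, a phagocytosis receptor gene also expressed by astrocytes, was among the 7 (-0.38, adjusted p = 0.0448) but passed in 7 of 17 alternative fits.

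Of 11 tested genes for other receptors near the P2Y family, most with ligands other than nucleotides, 1 fell, beside 1.11% of all genes tested. This was Gpr34, a lysophosphatidylserine receptor gene of microglia, at 0.124 ± 0.0772 CPM in depleted mice and 6.19 ± 0.559 CPM in control mice (log2 fold change -5.60, SE 0.30, adjusted p = 1.02e-05, edgeR). The lysophosphatidic acid receptor gene Lpar6 stood at -0.64 (SE 0.14, adjusted p = 0.0772). Gpr17, a receptor gene of oligodendrocyte precursors, stood at 0.60 (SE 0.16, adjusted p = 0.177), with 76.5 ± 17.5 CPM in depleted and 50.6 ± 6.54 CPM in control mice. Gpr17 is itself 1 of 6 listed markers of these precursors, of which 2 fell in edgeR, Pdgfra (-0.98) and Cspg4 (-0.86). The other 5 precursor markers summed to 114 to 141 CPM in depleted mice and 136 to 173 CPM in control mice. Of 6 listed markers of oligodendrocytes, all 6 had a positive log2 fold change, with a median of 0.50. In edgeR 0 of these 6 passed, and in DESeq2 2 were higher. The part of either set of markers in the Gpr17 level was not tested. The median of the 11 related receptor genes was -0.18, and P2ry10 was at 0.00509 CPM in depleted and 0.00925 CPM in control mice.

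Neither receptor desensitisation nor nucleotide supply genes passed in edgeR. Of 16 tested genes for receptor kinases, arrestins, RGS proteins and their partners, 0 passed in edgeR, 2 in DESeq2 and 0 in limma-voom (6 at an unadjusted p under 0.05 in edgeR, median -0.03). The arrestin gene Arrb2 (-0.32, adjusted p = 0.154) and the receptor kinase gene Grk3 (-0.37, adjusted p = 0.20) had the smallest p. For nucleotide and UDP-sugar release and supply, 18 genes were tested and 0 passed in edgeR, DESeq2 or limma-voom (4 at an unadjusted p under 0.05, median -0.06). Among these, the connexin gene Gjb6 stood at -0.30 (adjusted p = 0.343) and Ugp2, which makes the P2Y14 ligand UDP-glucose, at 0.15 (adjusted p = 0.387). In DESeq2, 1.99% of all genes tested passed. The counts of 6 and 4 at an unadjusted p under 0.05 have no share of all genes beside them and are not read as results.

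The genes with the most similar profile over the 8 mice were listed for the 3 receptors that fell, which by construction returns genes that fell as well. Likeness was the Euclidean distance between log2 CPM profiles centred on the control mean, over 15593 genes with at least 1 CPM in control mice, and for genes near 0 reads it depends on the prior count. Nearest to P2ry12 were the transcription factor gene Spi1 (distance 0.294), the receptor gene Clec5a (0.480) and Arhgap45 (0.614). Nearest to P2ry13 were Siglech (0.695), Fcrls (1.15) and the fractalkine receptor gene Cx3cr1 (1.34). Nearest to P2ry6 were the hexokinase gene Hk3 (0.593), Samsn1 (0.755) and the scavenger receptor gene Stab1 (0.827), which also marks border macrophages.

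Markers of other cells that can carry these receptors were read beside them. Border macrophages are relatives of microglia at vessels and meninges. Of their 5 tested markers 3 fell in edgeR (Stab1, Mrc1 and F13a1), beside 1.11% of all genes tested. The 6 listed markers summed to 2.99 to 5.76 CPM in depleted mice and 12.4 to 17.3 CPM in control mice. Without Stab1 the other 5 listed markers summed to 1.30 to 3.65 CPM in depleted mice and 1.85 to 2.78 CPM in control mice, with overlap. Cd163 had the highest mean CPM of these 5 in both groups and was the only tested marker with a positive log2 fold change. Mrc1 was left at 18.8% and F13a1 at 21.9% of the control level, so the overlap does not hold for each marker. Of the tested markers that did not pass, Cd163 had 2.15 ± 1.05 CPM in depleted and 0.956 ± 0.466 CPM in control mice (log2 fold change 1.18, adjusted p = 0.380) and Lyve1 stood at -0.58 (adjusted p = 0.716). The part of these markers in the falls of P2ry6, P2ry12 and P2ry13 was not tested. Platelet markers summed to 17.5 to 23.3 CPM in depleted and 15.8 to 20.2 CPM in control mice, nearly all of it Gp1bb and Itga2b, and 0 of the 2 tested passed in edgeR or limma-voom (1 at an unadjusted p under 0.05). DESeq2, which keeps rarer genes, had 1 lower platelet gene, Gp9, at 0.00509 ± 0.0102 CPM in depleted and 0.198 ± 0.0804 CPM in control mice (adjusted p = 0.0017), and its part in the fall of P2ry12 was not tested. The platelet genes Gp9, Ppbp, Gp6 and Treml1 were at 0.0768 CPM or less in depleted mice and at 0.198 CPM or less in control mice. Markers of astrocytes (6 tested) and endothelium (6 tested), which can carry P2ry1 and P2ry2, had 0 genes past the threshold in edgeR, DESeq2 or limma-voom and 0 with an unadjusted p under 0.05. Neurons, named above for P2Y1, also had 0 of 6 tested markers past the threshold in these fits. In edgeR, 2 of these 6 neuron markers had an unadjusted p under 0.05, and 5 had a positive log2 fold change. The part of neuron markers in the P2ry1 values was not tested.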

How the data were processed

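The authors deposited 1 table of whole-number read counts per gene symbol, not normalized, with 1 column per mouse; the submitters' processing notes name mm10, STAR, DESeq, DESeq2, FastQC and MultiQC. What annotation, strand setting, tool versions and kit were used is not given in the sources used here. Columns were matched to mice by title. Counts were filtered with filterByExpr (20140 of 53278 genes kept), scaled with TMM and fitted with edgeR 4.0.16 under R 4.3.3, without covariates, as depleted over control. The threshold was an adjusted p of 0.05 (Benjamini-Hochberg over all genes tested). CPM used TMM-scaled totals; a prior count of 2 was added for log2 CPM. TPM used union exon lengths of GENCODE M21, which 93.1% of symbols matched.

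The members and gene lists were chosen with earlier results of these data known. All members are named; of each list the genes past the threshold (at most 4 by p, or 2 where none passed), the 3 genes nearest in profile to each member that passed, and genes within 100 kb of the Gi-coupled group are named by rule, apart from genes not reported here. Pik3r5, Kcnk13, Plcg2, Lpar6, Gpr17, P2ry10, Siglech, Rgs10, Cd163, Lyve1 and the markers of platelets, of oligodendrocytes and of oligodendrocyte precursors were named after their values were seen. Counts of genes at an unadjusted p under 0.05 are given without the share of all genes at that level and are not read as results. In the lists, P2ry10b, Nherf1 and Vamp7 had no row. No replicate pair was as close as sampling noise (chi-square per gene of 11.2 or more). The fit was tested on simulated counts. Alternatives were DESeq2 size factors or library size alone, no filter or 1 CPM in 4 samples, DESeq2 1.42.0, limma-voom (limma 3.58.1), a replicate block, the striatal marker level as a covariate, Hcrt reads as a block and leaving out each mouse.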

Additional observations from a re-analysis of the deposited data

Results flagged for a closer look

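P2ry2 in control mouse 1 lay far from the rest of its group, with 0.932 CPM, while the remaining control mice had 0.333 to 0.386 CPM. The gap was 0.911 of the group's range, above Dixon's critical value for 4 samples. It was the only such value among 14 combinations of member and group, and chance gives about 1 in 20.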

How the results depend on the processing

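P2ry12, P2ry13 and P2ry6 stayed lower and past the threshold in all 17 alternatives, at log2 fold changes of -4.80 to -4.34, -7.55 to -6.13 and -2.67 to -2.19 (adjusted p up to 0.00128, 0.00361 and 0.0146). P2ry1 and P2ry14 in 17 alternatives, and P2ry2 in 16 (it was not tested under the stricter filter), never passed. With the striatal marker level as a covariate, P2ry2 turned to 0.080 and P2ry14 to -0.14. Leaving out 1 mouse gave P2ry14 values from -0.048 to 0.17. The cause was not tested.

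The count of all lower genes was 349 in DESeq2 (223 in edgeR) and 178 to 441 without 1 mouse, the highest without depleted mouse 2. The count of higher genes was 25 with no filter, 6 with the stricter filter, 4 with the replicate block, 125 in DESeq2 and 2 with the striatal covariate (11 in edgeR), and 2 to 243 without 1 mouse, highest again without depleted mouse 2. In DESeq2, 2 related receptors, 3 Gi-branch genes and 2 desensitisation genes were lower, and 1 gene of the signalling lists, Gpr17, was higher. Over all genes tested in DESeq2, 1.99% passed in either direction. Without 1 mouse the Gi branch had 1 to 2 lower genes, the desensitisation list 0 to 3 and all signalling lists 0 to 2 higher genes.

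The deviations of same-numbered mice from their group means had correlations of -0.22, -0.17, 0.37 and -0.01. Those of differently numbered mice ran from -0.38 to 0.44. Such correlations cannot show whether the numbers pair mice, and Hcrt reads were present in mice 2 and 3 of both groups. With the replicate block the count of lower genes was 161, and P2ry12, P2ry13 and P2ry6 still passed. Within-number differences of the ratios were 2.21 (P2ry6 to P2ry12), 3.99 (P2ry6 to P2ry13) and 1.78 (P2ry12 to P2ry13), each with p = 0.125 by exact sign flips, the smallest 4 pairs allow. Without 1 mouse these were 2.03 to 2.56, 3.60 to 4.60 and 1.57 to 2.04, at an exact permutation p of 0.0571, the smallest 3 against 4 allow.

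Counts of 16 for P2ry13 and 82 for P2ry6 over the depleted mice limit how well their residual levels are known.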
